A study of Mus musculus with 6 samples.

Results

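The genes described here are 7 transcription factor genes that act in the formation of fat cells: Pparg, Cebpa, Cebpb, Cebpd, Klf15, Zfp423 and Zfp467. They were chosen by name, and all 7 had a value among the 19938 genes of the table. Each was read by 1 probe set that names that gene alone. Levels are log2 values of the deposited array intensity, and a difference is the mean of the targeted arrays minus the mean of the non-targeted arrays. Because probe sets differ in how strongly they hybridise, the level of one gene was not set against that of another.

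The cells were Cxcl12-abundant reticular (CAR) cells, marrow stromal cells named for their strong expression of the chemokine gene Cxcl12. They were sorted by flow cytometry into CAR cells that Dmp1-Cre had targeted (3 arrays) and CAR cells that it had not (3 arrays). Both groups came from C57BL/6 mice of genotype Dmp1-Cre Cxcl12-gfp/+ at 7 weeks of age, so the non-targeted cells also came from Cre-carrying animals. Marrow came from femur and tibia. The Cre is under control of Dmp1 sequence, which is active in mature osteoblasts and in osteocytes, so the targeted group is defined by past or present activity of that driver. The design text speaks of 3 mice, each giving the cells of a sample, and the labels call the arrays biological replicates. They do not say whether a targeted and a non-targeted array with the same number came from the same animal.

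PPAR gamma, the product of Pparg, is the nuclear receptor without which fat cells do not form, and it binds DNA together with a retinoid X receptor. In cultured preadipocytes the leucine zipper proteins C/EBP beta and C/EBP delta appear early and switch on Pparg and Cebpa, whose products then sustain each other and activate the genes of the fat cell. ZFP423 and ZFP467 are zinc finger proteins that favour commitment to the fat lineage, and KLF15 is a Krüppel-like factor of maturing fat cells. CAR cells express several of these genes without being fat cells, and they are a source of marrow adipocytes.

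Promoter sequence is shown for 3 of the 7 genes, because the array reads Pparg as 1 gene although it starts at separate promoters, because Cebpa is known to be bound by its own product, and because Zfp423 is the member whose groups did not overlap. The windows come from RefSeq on build GRCm38.p6, run 5′ to 3′ on the strand of the gene, and hold 250 bases before a start and 50 from it on. Windows were found for 6 of the 7 members, all but Cebpd. Capitals mark 4 strings of letters searched on both strands: TTGCG, the core bound by C/EBP proteins, AGGTCA, the core bound by nuclear receptors such as PPAR gamma, GGGCGG, the GC box read by Krüppel-like and Sp factors, and GCACCC, the core bound by ZFP423. The windows lie at chr6:115360894-115361193 (plus strand, upstream start of Pparg), chr6:115421816-115422115 (plus strand, start of the Pparg2 form typical of fat cells), chr7:35119043-35119342 (plus strand, Cebpa) and chr8:87959546-87959845 (minus strand, Zfp423).
Pparg, upstream start: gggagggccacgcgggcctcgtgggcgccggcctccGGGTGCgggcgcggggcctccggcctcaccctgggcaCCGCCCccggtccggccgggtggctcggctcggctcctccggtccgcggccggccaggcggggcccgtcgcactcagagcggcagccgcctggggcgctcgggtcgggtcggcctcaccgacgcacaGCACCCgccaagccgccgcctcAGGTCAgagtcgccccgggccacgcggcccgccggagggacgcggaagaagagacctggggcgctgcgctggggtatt
Pparg2: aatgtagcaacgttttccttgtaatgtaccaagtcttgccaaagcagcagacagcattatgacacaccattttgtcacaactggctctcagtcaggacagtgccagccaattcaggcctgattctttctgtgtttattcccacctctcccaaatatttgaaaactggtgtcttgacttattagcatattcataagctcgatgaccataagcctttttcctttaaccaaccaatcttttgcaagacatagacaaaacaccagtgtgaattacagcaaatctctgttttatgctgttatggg
Cebpa: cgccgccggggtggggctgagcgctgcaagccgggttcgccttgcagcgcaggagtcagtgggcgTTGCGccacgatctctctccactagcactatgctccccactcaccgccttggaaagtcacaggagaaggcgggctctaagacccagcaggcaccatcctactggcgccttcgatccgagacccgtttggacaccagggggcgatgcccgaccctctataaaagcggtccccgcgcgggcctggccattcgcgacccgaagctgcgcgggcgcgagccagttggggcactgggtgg
Zfp423: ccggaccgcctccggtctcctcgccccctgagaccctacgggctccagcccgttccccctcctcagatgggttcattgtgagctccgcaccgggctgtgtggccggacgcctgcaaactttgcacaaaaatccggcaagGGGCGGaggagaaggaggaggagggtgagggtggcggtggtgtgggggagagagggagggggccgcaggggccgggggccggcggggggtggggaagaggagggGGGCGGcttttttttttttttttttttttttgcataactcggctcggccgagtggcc

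The upstream window of Pparg had a GC content of 80.3% and held 2 matches to GCACCC, 1 to GGGCGG and 1 to AGGTCA. The Pparg2 window had a GC content of 40.3% and held none of the 4 strings. The Cebpa window held 1 TTGCG, whose first base lay 185 bases before the start, and none of the other 3 strings. The Zfp423 window held 2 matches to GGGCGG. The table holds 1 more start of each of Pparg and Zfp423, not printed here. The further Pparg window held 2 matches to GGGCGG and 1 to AGGTCA, and the further Zfp423 window held 1 of each. Over all 32817 windows of this length, 17.4% held TTGCG, 16.3% held AGGTCA, 35.6% held GGGCGG and 15.7% held GCACCC, so each string is common. A match describes letters and is not a measured site. The annotation of the Pparg probe set lists transcripts of both starts, so the values below cannot separate the 2 forms.

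The arrays had median intensities of 79.4 to 87.5, and their log2 values correlated across genes at 0.955 to 0.981 (Pearson's r of array pairs, all 19938 genes). Dmp1, the gene whose sequence drives the Cre, was at 11.28, 10.03 and 9.89 on the 3 targeted arrays against 7.51, 6.93 and 6.91 on the non-targeted arrays, which fits the labels of all 6. Cxcl12 was at 12.22 to 12.40 in the targeted group and at 12.32 to 12.65 in the non-targeted group, and all 12 stromal marker genes of CAR cells passed the filter on dim genes. Of 8 marker genes of mature fat cells with a value, 3 (Cidea, Lep and Adig) lay below the filter's log2 limit of 6.00. The 5 others were tested, 4 with a difference below 0 and a median of -0.11. The mean log2 intensity of these 5 was 6.701, 6.715 and 6.483 on the targeted arrays against 6.949, 6.711 and 6.693 on the non-targeted arrays. Aqp7, the brightest of them, differed by -0.63 (SE 0.39) and Slc2a4 by -0.11 (SE 0.15). The fat droplet coat gene Plin1 was at 6.38 to 6.58 in the targeted group and at 6.27 to 6.77 in the non-targeted group. Of 12 listed marker genes of osteoblasts and osteocytes, 8 had a value and 7 were tested, Dmp1 among them. Of these, 6 were higher in targeted cells and 1 lower, with a median difference of 0.37. The brightest, Ibsp, differed by only 0.05 (SE 0.19), whereas Alpl differed by 1.11 (SE 0.31) and Col1a1 by 1.08 (SE 0.45). In sorted bulk samples, fewer cells of a type and less RNA per cell cannot be told apart.

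Across the 13292 genes tested with limma, 0 passed an adjusted p of 0.05, or 0%, and 634 had an unadjusted p under 0.05, or 4.77%. Dmp1, at a difference of 3.28, did not pass either, and its limma adjusted p of 0.384 was the smallest. A difference that does not pass is therefore not shown to be absent. All 7 members passed the filter on dim genes, and none passed the adjusted threshold (adjusted p = 0.9998 for each, limma with Benjamini-Hochberg adjustment over all genes tested). None had an unadjusted p under 0.05 either. The point estimates were below 0 for 6 of the 7 members and above 0 for Zfp467, with a median difference of -0.20. Over all genes tested, 51.1% had a difference below 0 and the median was -0.01. The 95% intervals of all 7 members covered 0.

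**Figure D1:**
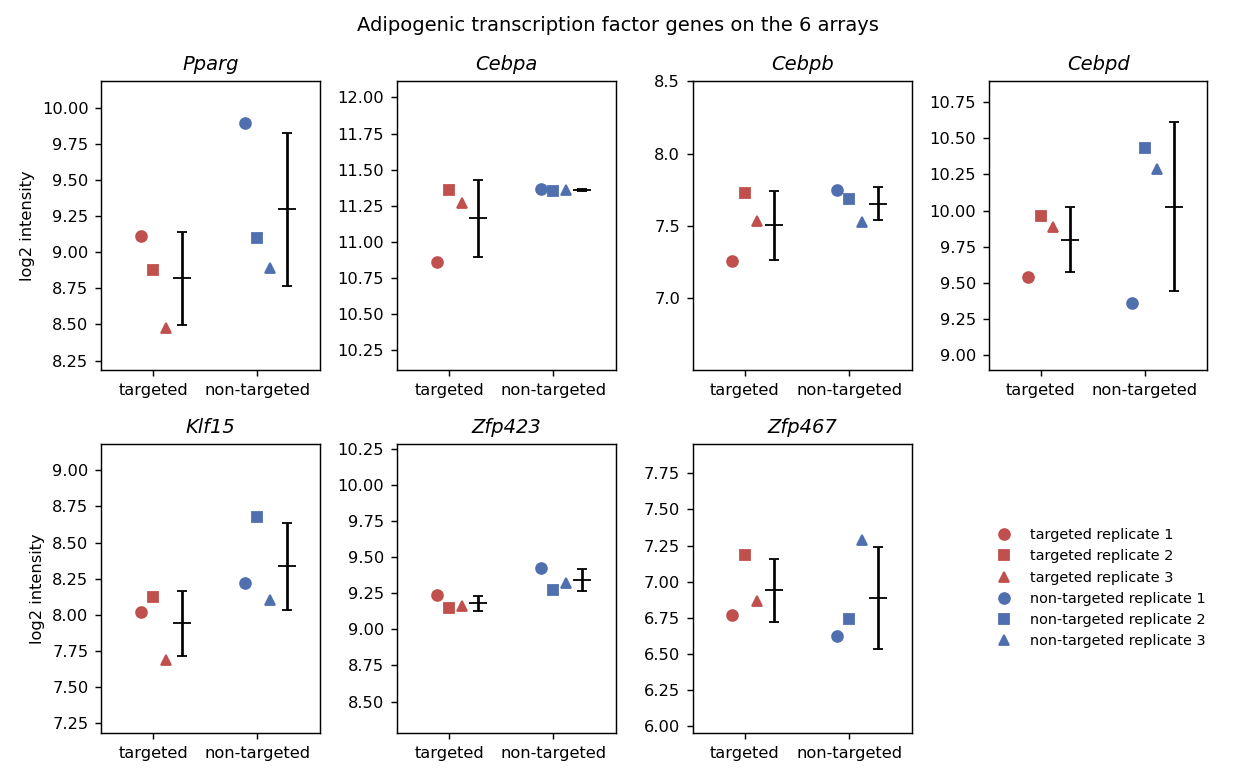
Log2 intensity of each member on the 6 arrays, targeted cells left and non-targeted cells right, with the mean and SD of each group (n = 3) as bars and one marker shape per replicate number. Every vertical axis spans the same log2 distance. The groups overlap for all members but Zfp423, and the 3 non-targeted values of Cebpa lie almost on one point.

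Zfp423 encodes the zinc finger protein that marks committed preadipocytes and makes them more responsive to BMP signals. Its log2 intensity was 9.24, 9.14 and 9.16 on the 3 targeted arrays against 9.42, 9.27 and 9.32 on the non-targeted arrays. Every targeted array lay below every non-targeted one, with a gap of 0.034 between the nearest values. That made it 1 of 7 members with targeted arrays all lower, where 5.76% of all genes tested showed the same, 3.32% had them all higher and 9.07% did not overlap in one or the other direction. The means were 9.18 ± 0.05 in targeted cells, against 9.34 ± 0.08 in non-targeted cells (mean ± SD of n = 3). The difference was -0.16 (SE 0.14, 95% interval -0.48 to 0.16), or 10.4% lower in targeted cells, and it did not pass. Its SD over the 6 arrays, at 0.10, was the smallest of the members. With 1 array left out in turn its difference ran from -0.19 to -0.12, and under cyclic loess scaling it was -0.08.

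Zfp467 encodes a zinc finger protein that in marrow stromal cells of mice favours the fat over the bone lineage and is lowered by parathyroid hormone. It was at 6.77, 7.19 and 6.87 in targeted cells and at 6.62, 6.75 and 7.29 in non-targeted cells. The lowest and the highest of the 6 values were both on non-targeted arrays. The difference was 0.06 (SE 0.22, 95% interval -0.45 to 0.56), and its sign turned when targeted replicate 2 (-0.067), non-targeted replicate 1 (-0.075) or non-targeted replicate 2 (-0.014) was left out. Pth1r, the receptor of parathyroid hormone, was at 10.06, 9.17 and 9.33 in targeted cells and at 8.97, 9.11 and 9.18 in non-targeted cells. Its difference was 0.44 (SE 0.24, limma adjusted p = 0.9998), with overlapping groups. Pth1r was chosen for mention after its values were seen.

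Cebpb encodes C/EBP beta, one of the early factors and also a factor of myeloid cells and of the acute phase response. Its log2 intensity was 7.26, 7.73 and 7.53 in targeted cells and 7.75, 7.68 and 7.53 in non-targeted cells. Targeted replicate 1 was low and the other 5 arrays lay within 7.53 to 7.75. The difference of -0.15 (SE 0.17, 95% interval -0.55 to 0.25) shrank to -0.02 without targeted replicate 1.

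Cebpd encodes C/EBP delta, the other early factor, likewise induced in inflammation. It was at 9.54, 9.96 and 9.89 in targeted cells and at 9.36, 10.43 and 10.29 in non-targeted cells. Both the lowest and the highest value were non-targeted, and the SD was 0.22 in targeted and 0.58 in non-targeted cells. The difference was -0.23 (SE 0.29, 95% interval -0.91 to 0.45). Leaving out non-targeted replicate 1 gave -0.56, whereas leaving out non-targeted replicate 2 gave -0.03, so single control arrays decided its size. Without non-targeted replicate 1 the unadjusted p was 0.0256, and the limma adjusted p was 0.779 (0.371 to 1 across all 18 alternatives).

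The immediate early and dissociation genes, which respond to the handling of cells, had a partly similar pattern. Their mean log2 intensity over 14 genes was 8.46, 8.62 and 8.54 on the 3 targeted arrays against 8.56, 9.06 and 8.83 on the non-targeted arrays. Non-targeted replicate 1 lay within the targeted range for this list and below it for Cebpd, and non-targeted replicate 2 was highest for both. Of the 14 genes, 13 were lower in targeted cells, with a median difference of -0.24, and 0 passed. The targeted arrays lay all lower for 4, where 5.76% of all genes tested did so. Hspb1, a small heat shock protein gene, was at 7.23, 7.38 and 7.20 in targeted cells against 7.74, 8.60 and 8.24 in non-targeted cells, a difference of -0.92 (SE 0.23, limma adjusted p = 0.758). Fosb, a subunit of AP-1, differed by -0.44, the phosphatase gene Dusp1 by -0.46 and the mRNA decay factor gene Zfp36 by -0.42. The part of these genes in the values of Cebpb and Cebpd was not tested.

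Pparg had the largest point difference of the 7. Its log2 intensity was 9.11, 8.87 and 8.47 in targeted cells and 9.89, 9.10 and 8.89 in non-targeted cells. Non-targeted replicate 1 stood highest and targeted replicate 3 lowest, while the 4 values between them, at 8.87 to 9.11, came from both groups. The means were 8.82 ± 0.32 in targeted cells, against 9.30 ± 0.53 in non-targeted cells (mean ± SD of n = 3). The difference was -0.48 (SE 0.29, 95% interval -1.15 to 0.20), a fold of 0.719, or 28.1% lower in targeted cells. The interval runs from 0.451-fold to 1.15-fold, and it covers no difference. Without non-targeted replicate 1 the difference was -0.18, and without non-targeted replicate 3 it was -0.68. All 18 alternatives gave a Pparg difference below 0, and in none did it pass. Those that changed only the filter, the variance model, the probe set rule or the replicate block could not alter the difference.

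Cebpa encodes C/EBP alpha, which with PPAR gamma maintains the fat cell state and is also needed for granulocytes. It was at 10.86, 11.36 and 11.27 in targeted cells and at 11.37, 11.35 and 11.36 in non-targeted cells. The non-targeted values spanned 0.014, and targeted replicate 2 lay inside that span, so the groups overlapped. The means were 11.16 ± 0.27 in targeted cells, against 11.36 ± 0.01 in non-targeted cells, with the SD over 3 arrays, a difference of -0.20 (SE 0.17, 95% interval -0.60 to 0.21). Without targeted replicate 1 the difference was -0.04. The median SD over all genes tested was 0.23 in targeted and 0.20 in non-targeted cells, so the spread of Cebpa in targeted cells was ordinary and that in non-targeted cells small.

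Targeted replicate 1, the array lowest for Cebpa and Cebpb, was also lowest for genes of neutrophils and their precursors. The mean log2 intensity of 12 such genes was 6.44, 7.93 and 8.61 on the 3 targeted arrays against 8.26, 8.58 and 8.86 on the non-targeted arrays. S100a8, a calcium-binding protein gene of neutrophils, was at 6.97, 11.34 and 11.84 in targeted cells and at 11.43, 11.31 and 11.97 in non-targeted cells. Camp, the cathelicidin gene, was at 7.18, 10.02 and 10.29 in targeted cells and at 10.08, 10.49 and 10.95 in non-targeted cells. Of the list's 15 genes 3 were dim (Elane, Ctsg and Mmp8), and of the 12 tested 10 were lower in targeted cells. The list's median difference was -0.93 with all arrays and -0.20 without targeted replicate 1. Of the 7 members, 2 were lowest on that array, and 24.2% of all genes tested were. Since C/EBP genes are active in myeloid cells too, these values stand beside those of Cebpa and Cebpb, and their part in them was not tested. Macrophage genes were less uneven, at mean levels of 6.19 to 6.88 in the targeted group and 6.42 to 6.66 in the non-targeted group over 7 genes, with the defining gene Adgre1 dim. B cell genes (3 tested of 7 with a value) were at 6.41 to 7.05 in the targeted group and 6.87 to 7.37 in the non-targeted group. These means follow Vpreb1, which differed by -1.54 (SE 0.57), while Cd79b differed by -0.02 and Vpreb3 by 0.23. Of 7 endothelial genes 5 were dim.

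**Figure D2:**
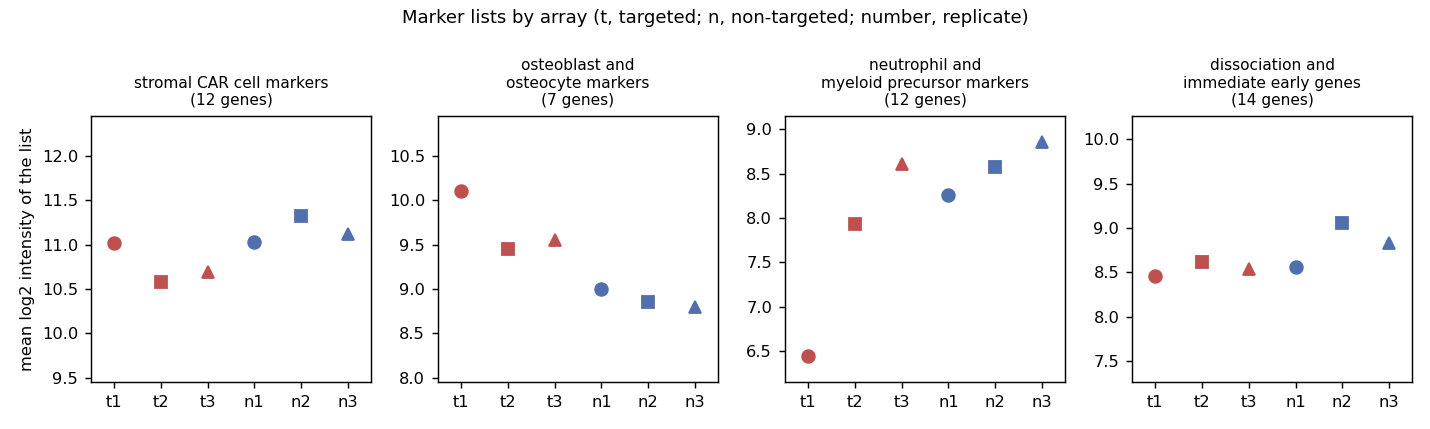
Mean log2 intensity of 4 gene lists on each array (3 targeted arrays left, 3 non-targeted arrays right, every axis spanning the same log2 distance). Targeted replicate 1 stands at 6.44 for neutrophil genes against 7.93 to 8.86 on the other arrays, and osteoblast and osteocyte genes, a list that holds Dmp1, are higher on all 3 targeted arrays.

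Klf15 encodes a zinc finger factor that rises late in fat cell formation and activates the insulin-responsive glucose transporter gene Slc2a4. Its log2 intensity was 8.02, 8.12 and 7.69 in targeted cells and 8.22, 8.68 and 8.11 in non-targeted cells. The groups overlapped by 0.017, since targeted replicate 2 lay just above non-targeted replicate 3. The means were 7.94 ± 0.23 in targeted cells, against 8.34 ± 0.30 in non-targeted cells (mean ± SD of n = 3). The difference was -0.39 (SE 0.21, 95% interval -0.87 to 0.09), or 23.9% lower in targeted cells, with an unadjusted p of 0.0941 from limma, the smallest among the members. Across genes, 1192 had a smaller p. With 1 array left out in turn the difference ran from -0.51 to -0.22. Slc2a4 was at 6.45, 6.53 and 6.67 in targeted cells and at 6.54, 6.78 and 6.67 in non-targeted cells, a difference of -0.11 (SE 0.15).

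**Figure D3:**
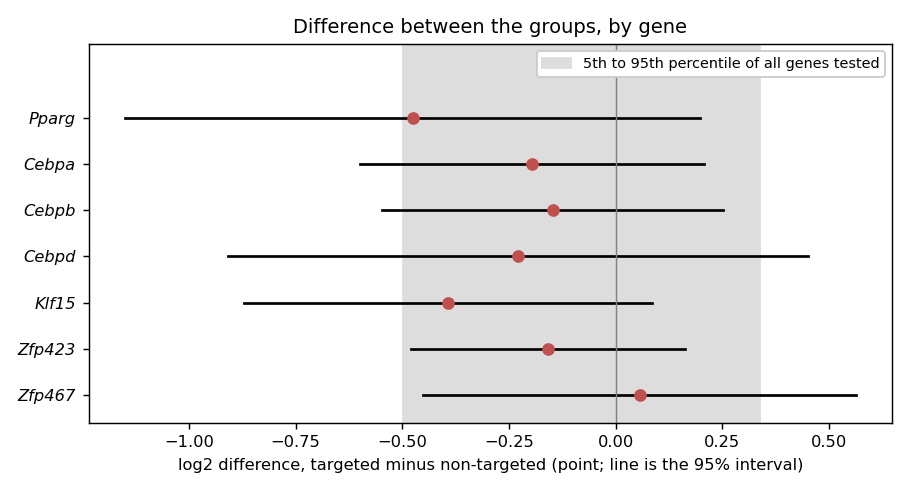
Log2 difference of each member, targeted minus non-targeted (point), with the 95% interval of the limma fit (line), over the range of differences of all genes tested (grey, 5th to 95th percentile, -0.50 to 0.34). All 7 points lie within the grey range and all 7 lines cross 0.

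**Figure D4:**
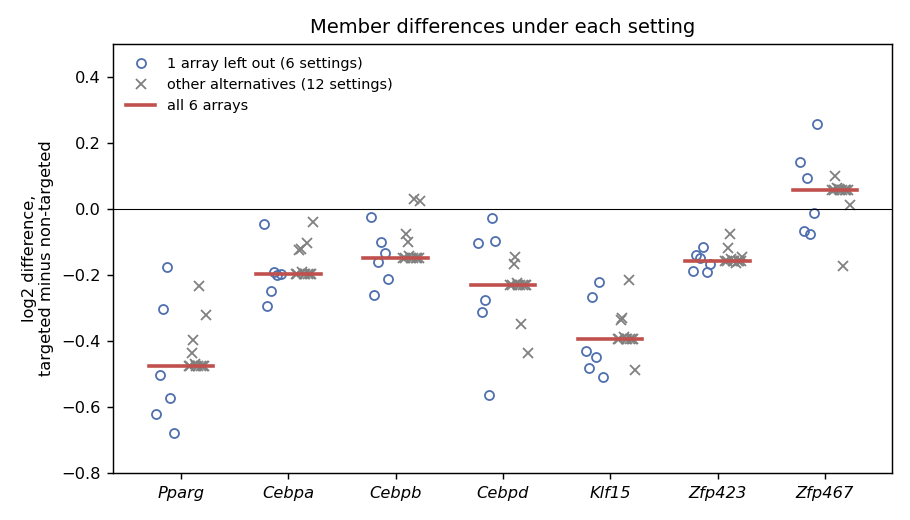
Log2 difference of each member, targeted minus non-targeted, with all 6 arrays (bar), with 1 array left out (circles) and under the other alternatives (crosses). Pparg, Cebpa, Cebpd, Klf15 and Zfp423 stay below 0 throughout, Cebpb crosses 0 in 2 settings and Zfp467 in 4. Crosses for the filter, variance model, probe set rule and replicate block equal the bar by construction.

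The members did not share one order of the arrays. Pparg and Klf15 were lowest on targeted replicate 3, Cebpa and Cebpb on targeted replicate 1, Cebpd and Zfp467 on non-targeted replicate 1 and Zfp423 on targeted replicate 2. Non-targeted replicate 1 was the highest array for Pparg, Cebpa, Cebpb and Zfp423 and the lowest for Cebpd and Zfp467. Likeness of profiles was measured as the root mean square distance between log2 values centred on each gene's mean over the 6 arrays. Cebpa and Cebpb were the nearest pair, at 0.080, while the member nearest to Pparg was Zfp423 at 0.354. This distance also depends on how much each gene varied, so the 2 values are not directly comparable. The SD over the 6 arrays was 0.20 for Cebpa, 0.19 for Cebpb, 0.47 for Pparg and 0.10 for Zfp423. Among all named genes tested, the 3 nearest to Pparg were Slc30a9, a zinc transporter family gene (0.126), Tex2 (0.129) and Ccdc127 (0.133). For Cebpa they were Hccs (0.036), Mapk8ip1 (0.039) and Nkx1-1 (0.044). For Klf15 they were Tdp1 (0.059), the zinc finger gene Zfp148 (0.063) and Clip1 (0.068). For Zfp467 they were Tomm22 (0.077), Cx3cr1 (0.078) and Kcnh1 (0.086).

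The gene nearest to Cebpd was Lbp, which encodes a lipopolysaccharide-binding protein of the acute phase, at a distance of 0.059. Like Cebpd, Lbp had its lowest value on non-targeted replicate 1 (11.57) and its highest on non-targeted replicates 2 and 3 (12.53 and 12.41), with the targeted arrays at 11.59 to 12.04. The other 2 were Morc3 (0.089) and Cryl1 (0.114). Cebpb and Zfp423 varied by an SD under 0.2 over the 6 arrays and were not matched. With 6 arrays and 13292 genes some close profiles arise for any gene, so these are descriptions.

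The target genes of PPAR gamma and C/EBP alpha carry out the work of fat cells, from lipid uptake to storage and release. Of 32 listed, 30 had a value, 5 of them dim (Cd36, Cidea, Pck1, Gpd1 and Lep), and 25 were tested. Of these, 19 were lower and 6 higher in targeted cells, with a median difference of -0.13, and 0 passed. The targeted arrays lay all lower for 2 and all higher for 1, where 5.76% and 3.32% of all genes tested did so. Acaca, the enzyme of the first step of fatty acid synthesis, was at 7.24, 6.90 and 7.03 in targeted cells and at 7.66, 7.93 and 7.65 in non-targeted cells. Its difference was -0.69 (SE 0.16, 95% interval -1.07 to -0.31, limma adjusted p = 0.734), and it stayed within -0.78 to -0.60 with 1 array left out. Pnpla2, the triglyceride lipase, did not overlap either, at 6.59, 6.93 and 7.00 in targeted cells against 7.21, 7.40 and 7.09 in non-targeted cells.

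Mgll, which releases the last fatty acid of a stored fat, had a difference of the opposite sign. It was at 9.25, 7.30 and 7.48 in targeted cells and at 6.52, 6.47 and 6.27 in non-targeted cells, 3.01-fold higher (difference 1.59, SE 0.47, limma adjusted p = 0.864). Targeted replicate 1 was the highest, and without it the difference was 0.97. Scd1, a fatty acid desaturase, was at 7.56, 8.73 and 8.87 in targeted cells and at 8.83, 9.30 and 9.30 in non-targeted cells, with overlapping groups.

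Several of the target genes ranked the arrays much as Pparg did. The genes of this comparison were picked after their values were seen. Fabp4, the fatty acid carrier of fat cells and a direct target of PPAR gamma, was at 7.61, 7.21 and 6.26 in targeted cells and at 8.32, 7.43 and 7.40 in non-targeted cells. Fabp4 ranked the 6 arrays in the same order as Pparg, as did 18 of the 13292 genes tested, Fabp4 included. The list genes Ebf2 and Pdgfra were among these 18. Lpl, the lipoprotein lipase gene, was at 11.79, 11.46 and 11.19 in targeted cells and at 12.20, 11.94 and 11.52 in non-targeted cells. Aqp7, the glycerol channel of fat cells, was at 7.98, 7.71 and 6.53 in targeted cells and at 8.36, 8.15 and 7.58 in non-targeted cells. For Pparg, Fabp4, Lpl and Aqp7 alike, the highest array of each group was its replicate 1 and the lowest its replicate 3. Adipoq, the adiponectin gene, was at 13.34, 12.91 and 12.72 in targeted cells and at 13.29, 13.28 and 13.16 in non-targeted cells. It had the same order within each group, but its highest array was targeted replicate 1. Plin2 was at 8.14, 7.59 and 7.61 in targeted cells and at 8.53, 7.99 and 7.23 in non-targeted cells. Its lowest targeted array was thus replicate 2. Of the 25 target genes, 11 (44.0%) were highest on non-targeted replicate 1, where 16.4% of all genes tested were.

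**Figure D5:**
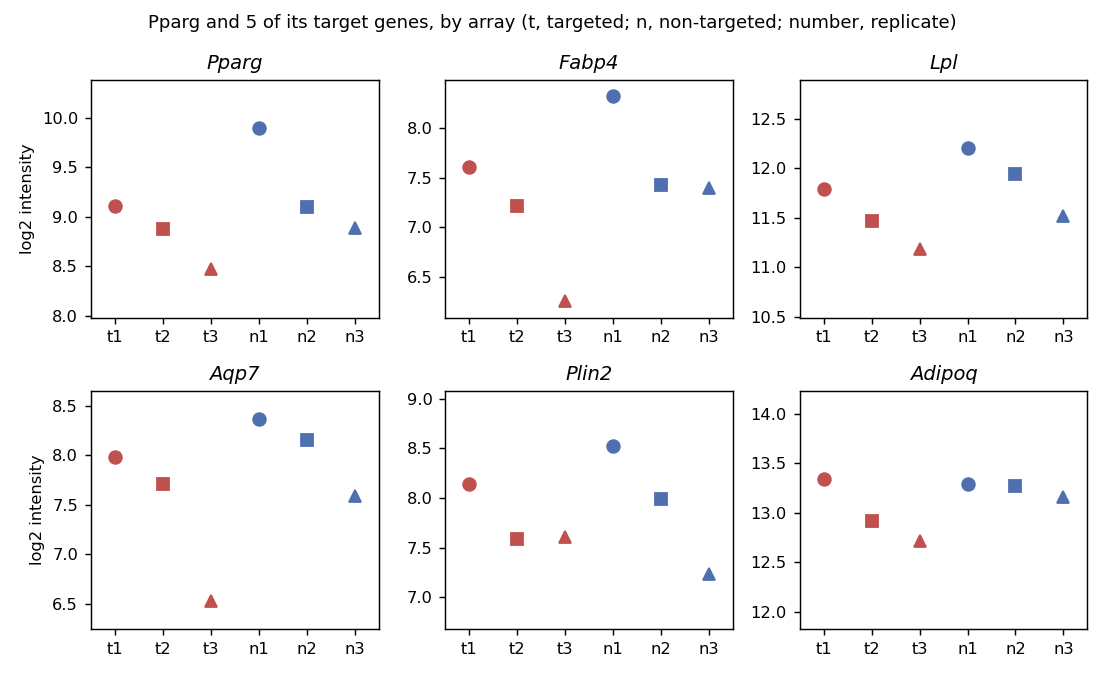
Log2 intensity of Pparg and 5 of its target genes on each array (3 targeted arrays left, 3 non-targeted arrays right, every axis spanning the same log2 distance). For Pparg, Fabp4, Lpl, Aqp7 and Adipoq replicate 1 is the highest and replicate 3 the lowest within each group. For Plin2 the lowest targeted array is replicate 2. Adipoq has its highest value of all on targeted replicate 1.

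Other regulators that promote fat cell formation also had mostly lower point estimates. Of 28 listed genes 27 were tested, with 22 lower and 5 higher, a median difference of -0.15 and 0 past the threshold. The targeted arrays lay all lower for 1, against 5.76% of all genes tested. The coactivator gene Ncoa1 differed by -0.46 (SE 0.23), Zbtb16 by -0.62 (SE 0.33) and Stat5a by -0.32 (SE 0.21). Nr1h3, the oxysterol receptor LXR alpha, differed by 0.39 (SE 0.22). None of these 4 passed (limma adjusted p = 0.9998 each). Ebf1, an early B cell factor that also acts in stroma, was at 11.50, 10.51 and 10.35 in targeted cells and at 10.72, 11.37 and 11.22 in non-targeted cells.

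Regulators that restrain fat cell formation leaned the same way. Of 28 listed genes 23 were tested, with 15 lower and 8 higher and a median difference of -0.12, and 0 passed. Klf7, a Krüppel-like repressor of adipogenesis, was at 8.56, 8.67 and 8.78 in targeted cells and at 8.93, 9.09 and 9.42 in non-targeted cells (difference -0.48, SE 0.17, limma adjusted p = 0.970). Ctnnb1, the beta-catenin gene of Wnt signalling, was at 9.39, 8.62 and 8.98 in targeted cells and at 8.53, 8.46 and 8.48 in non-targeted cells, a difference of 0.51 (SE 0.21). Runx1t1 differed by -0.81 (SE 0.39) and Foxo1 by -0.32 (SE 0.18), both with overlapping groups.

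Of 24 genes for signals upstream of these factors 21 were tested, with 15 lower and 6 higher, a median difference of -0.19 and 0 past the threshold. Bmp2, a ligand that can commit stromal cells to bone or fat, was at 9.30, 9.35 and 8.85 in targeted cells and at 9.73, 9.66 and 9.83 in non-targeted cells (difference -0.57, SE 0.18, limma adjusted p = 0.931). Fzd1, a Wnt receptor gene, was at 8.48, 8.60 and 7.79 in targeted cells and at 8.72 to 9.15 in non-targeted cells (difference -0.67, SE 0.24). Lifr, the receptor of leukaemia inhibitory factor, was at 11.22, 10.21 and 10.92 in targeted cells and at 10.28 or lower in non-targeted cells (difference 0.64, SE 0.26). Bmp4 differed by -0.51 (SE 0.26). The stromal markers of CAR cells leaned the same way as the members. All 12 were lower in targeted cells, with a median difference of -0.35 and 0 past the threshold. For 4 of them the targeted arrays lay all lower, against 5.76% of all genes tested. Their mean level was 10.58 to 11.02 in the targeted group and 11.03 to 11.33 in the non-targeted group. Lepr was at 12.02, 11.67 and 11.70 in targeted cells and at 12.29, 12.29 and 12.28 in non-targeted cells. The part of this shift in the values of the members was not tested.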

How the data were processed

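RNA of 6 samples was measured on Affymetrix mogene 1.0 ST arrays, labelled from picogram to nanogram amounts. Per the submitters' processing notes, the authors deposited intensity values made by RMA with Affymetrix Expression Console 1.4, 1 value a probe set. The values were linear, and their log2 was used throughout. The upstream annotation is not given in the sources used here. Of 35556 probe sets, 21789 named 1 gene, 1621 several and 12146 were unlisted. Symbols were updated through Entrez identifiers (21698 matched). Of several probe sets of a gene the one with the highest mean over the 6 arrays was kept, giving 19938 genes. The dimmest 33.3% (log2 mean at or below 6.00) were left out. The remaining 13292 were fitted with limma 3.58.1 in R 4.3.3 (lmFit, eBayes, no covariate) as targeted minus non-targeted. Two-sided p-values had a Benjamini-Hochberg adjustment over all genes tested. The procedure was tested on simulated data in which every set change was larger than the difference of any member. That test therefore does not bear on differences of the members' size.

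The members and gene lists were chosen with earlier results of these data known, so counts over them are descriptions. Named were all members, the 4 list genes with the smallest unadjusted p, the 3 brightest of a marker list where shown, and the 3 genes with the nearest profile, with gene models left out. Any other gene named was chosen after its values were seen. The number of arrays limits the precision. SDs measure the spread between these samples, and p-values weigh a group difference against a spread that limma moderates across genes. Alternatives changed the filter, the scaling, the variance model, array weights, the probe set rule, the replicate number as a block, and which arrays entered. Promoter letters were searched in Python 3.11.15, and figures drawn with matplotlib 3.10.9.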

Additional observations from a re-analysis of the deposited data

How the results depend on the processing

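Under 18 alternatives, 120 of 126 member values kept the sign they had with all 6 arrays, and none passed the adjusted threshold (smallest limma adjusted p 0.371). Many of these signs were fixed in advance. Alternatives that changed only the filter, the variance model, the probe set rule or the replicate block returned the same member differences. Only the scaling, the array weights and the choice of arrays could move them. Cebpb turned to 0.031 with array weights and to 0.025 on replicates 2 and 3 alone. Zfp467 turned to -0.17 with array weights, and with 1 array left out it ran from -0.08 to 0.26, turning to -0.067 without targeted replicate 2, -0.075 without non-targeted replicate 1 and -0.014 without non-targeted replicate 2. The cause was not tested. The count of genes past the threshold was 0 in 16 alternatives, including each array left out (0 to 0). It was 1, Dmp1, with array weights (limma adjusted p = 0.0259) and with the fixed replicate block (limma adjusted p = 0.0153). With neither, on all 6 arrays, the limma adjusted p of Dmp1 was 0.384. At an unadjusted p under 0.05 the counts ran from 407 with the random replicate block to 2060 with array weights, against 634. Over all genes tested, arrays with the same replicate number did not deviate alike. Deviations from the group means correlated at -0.26, -0.12 and 0.07 for replicates 1, 2 and 3. Of the 6 arrays only non-targeted replicate 3 correlated best with its own number (0.07). Pparg, Fabp4, Lpl, Aqp7 and Adipoq, by contrast, fell from replicate 1 to replicate 3 in both groups. All of these but Pparg were picked after their values were seen. With 3 arrays per group, neither pattern can decide whether same-numbered arrays came from the same animal. The fixed replicate block left each member at a limma adjusted p of 0.9999. In that fit the unadjusted p of the members ran from 0.0589 for Pparg to 0.819 for Zfp467. Without a block it was 0.141 for Pparg. With 3 arrays per group, the 95% intervals of the members are 0.64 to 1.36 wide on the log2 scale.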

Other observations

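Ppargc1a, the gene of a coactivator that PPAR gamma recruits in brown fat and other cells rich in mitochondria, fell below the filter on dim genes and was left out of the test. It was at 4.43, 4.71 and 4.79 in targeted cells and at 8.35, 4.43 and 4.43 in non-targeted cells. The high value was on non-targeted replicate 1, also the highest array for Pparg and Fabp4. It was 1 of 2 genes among 19938 that lay more than 2 log2 units above every other array there. Cidea, a lipid droplet gene of brown fat, was at 4.65 to 5.15 in the targeted group and at 4.70 to 5.18 in the non-targeted group and shows no such value.

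Insr, the insulin receptor gene, varied more between arrays than any member. It was at 9.38, 9.26 and 6.24 in targeted cells and at 6.63, 8.59 and 7.18 in non-targeted cells. High and low values occurred in both groups, the difference was 0.83 (SE 0.86), and it ran from 0.28 to 1.86 with 1 array left out. The 95% interval of -1.17 to 2.83 leaves its level in the targeted cells undetermined.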
